A study of Caenorhabditis elegans with 12 samples.

Results

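The 10 alpha and beta tubulin genes tba-1, tba-2, tba-4, tba-5, tba-6, tba-9, tbb-1, tbb-2, tbb-4 and tbb-6 were followed in sorted embryonic cells of Caenorhabditis elegans. They are a named list of general and ciliated-neuron isotypes, which leaves out the measured alpha tubulins tba-7, tba-8 and mec-12 and the beta tubulin mec-7, and they are 10 of 17118 genes that have a probe set of their own on the array. The platform annotation gave them 12 probe sets, 3 for tba-2 and 1 for each of the others. The brightest probe set stands for tba-2 and the other 2 are given beside it.

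There were 12 Affymetrix arrays in 4 groups of 3, mutant GFP+, mutant GFP-, wild-type GFP+ and wild-type GFP-. GFP+ cells expressed green fluorescent protein from a mir-124 promoter reporter (mir-124 is a microRNA gene), and GFP- cells came from the same kind of dissociated embryos but lacked the signal. Per the labels, the reporter had been injected into lin-15 (n765) worms with a lin-15 rescue plasmid, integrated by irradiation and outcrossed into N2, and the mutant is named mir-124, with no allele given in the sources used here. Each sample was 500000 cells, sorted after 24 hours in culture from dissociated embryos of many worms, and its RNA was amplified. Nothing in the labels ties a replicate to its own culture or day, and the p-values then speak only for the spread among these arrays, which may be technical.

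Alpha and beta tubulin pair into the heterodimers that build microtubules, and a nematode carries several genes, called isotypes, for each. In C. elegans tba-1, tba-2, tbb-1 and tbb-2 are general isotypes that serve the embryonic spindle and most tissues, and tba-4 is broadly expressed as well. tba-5, tba-6, tba-9 and tbb-4 are isotypes of ciliated sensory neurons, whose cilia are built on doublet and singlet microtubules. tbb-6 is a divergent beta isotype known for its induction under mitochondrial stress.

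The labelled fractions were checked against markers. Over 37 cilium genes, mean log2 expression spanned 8.50 to 8.80 in mutant GFP+ cells, against 5.64 to 5.72 in mutant GFP- cells. It was 8.22 to 9.004 in wild-type GFP+ cells and 5.402 and 5.518 in wild-type GFP- replicates 2 and 1. Replicate 3 of wild-type GFP- went against its label, with a cilium mean of 9.07. Over 18 body wall muscle genes its mean was 7.73, where its 2 fellow arrays had 9.74 and 10.43. Over 8 pairs of control probe sets, the 3' one exceeded the middle one by 3.56 (GFP+) and 3.53 (GFP-) log2 units on the third wild-type arrays, and by 1.64 to 2.18 on the other 10. Results are given with all 12 arrays and without this pair, as the 10-array fit.

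All log2 values here are expression summaries of a probe set. Probe sets differ in affinity, so a level is compared between groups for the same gene, and where values of 2 probe sets are set against each other within an array, only the change between groups is read. In these bulk samples, fewer cells of a type and less RNA per cell cannot be told apart.

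Tubulins of ciliated neurons were higher in GFP+ than in GFP- cells of the mutant, while 4 of the 5 general isotypes did not pass the test in either the 12-array or the 10-array fit. With limma and an adjusted p of 0.05, tbb-4, tba-5 and tba-9 rose with 12 arrays, 3 of the 10 genes, where 6.36% of all genes rose. In the 10-array fit tba-6 and tba-4 rose as well, making 5 of 10 against 14.3% of all genes. No tubulin fell in either fit, where 6.6% and 14.6% of all genes fell. With 12 arrays, leaving out mutant GFP+ replicate 1, 2 or 3 or mutant GFP- replicate 1 or 3 left 0 calls. In those fits 0% to 1% of all genes rose, so calls were lost across all genes. With the pair left out first, leaving out 1 more mutant array gave 4 to 6 calls, where 11.1% to 14% of all genes rose. The median log2 difference over the 10 genes was 0.45, against 0.01 over all genes.

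The largest difference was that of tbb-4, the beta isotype of sensory cilia. Its log2 expression was 10.28, 9.62 and 9.53 in mutant GFP+ cells, against 7.11, 6.61 and 6.90 in mutant GFP- cells. Every GFP+ array lay more than 2 log2 units above every GFP- array. The log2 difference was 2.94 ± 0.65 (SE; limma adjusted p = 0.0219), which is 7.65-fold, and with 10 arrays the error was 0.27 (adjusted p = 6.52e-05). Within each numbered pair the difference was 3.17, 3.01 and 2.63.

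The 3 alpha isotypes of ciliated neurons were higher by smaller amounts. tba-5, which builds the ciliary microtubules together with tbb-4, read 6.57, 6.08 and 5.996 in mutant GFP+ cells and 5.25, 4.87 and 4.94 in mutant GFP- cells. The groups did not overlap, and the log2 difference was 1.19 ± 0.25 (limma adjusted p = 0.0198), or 2.29-fold.

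tba-9 read 7.82, 8.003 and 7.64 in mutant GFP+ cells, against 6.85, 7.02 and 6.15 in mutant GFP- cells. No GFP- array reached a GFP+ array, and the difference was 1.15 ± 0.32 (limma adjusted p = 0.0447), or 2.22-fold. The call was lost under quantile normalization (adjusted p = 0.0538), with a trended prior (0.0505) and with a replicate block across the strains (0.0611). tba-6, known for its part in the cilia of neurons that release extracellular vesicles, read 7.07, 6.31 and 6.59 in mutant GFP+ and 5.70, 5.78 and 5.82 in mutant GFP- cells. Its groups were apart as well. The log2 difference of 0.89 was smaller than its 12-array error allowed (SE 0.54, limma adjusted p = 0.331) and passed in the 10-array fit (SE 0.22, adjusted p = 0.0146) and with the replicate number as a block within strain (adjusted p = 0.0453). That block made the count 4 of 10, where 11.2% of all genes rose.

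**Figure D1:**
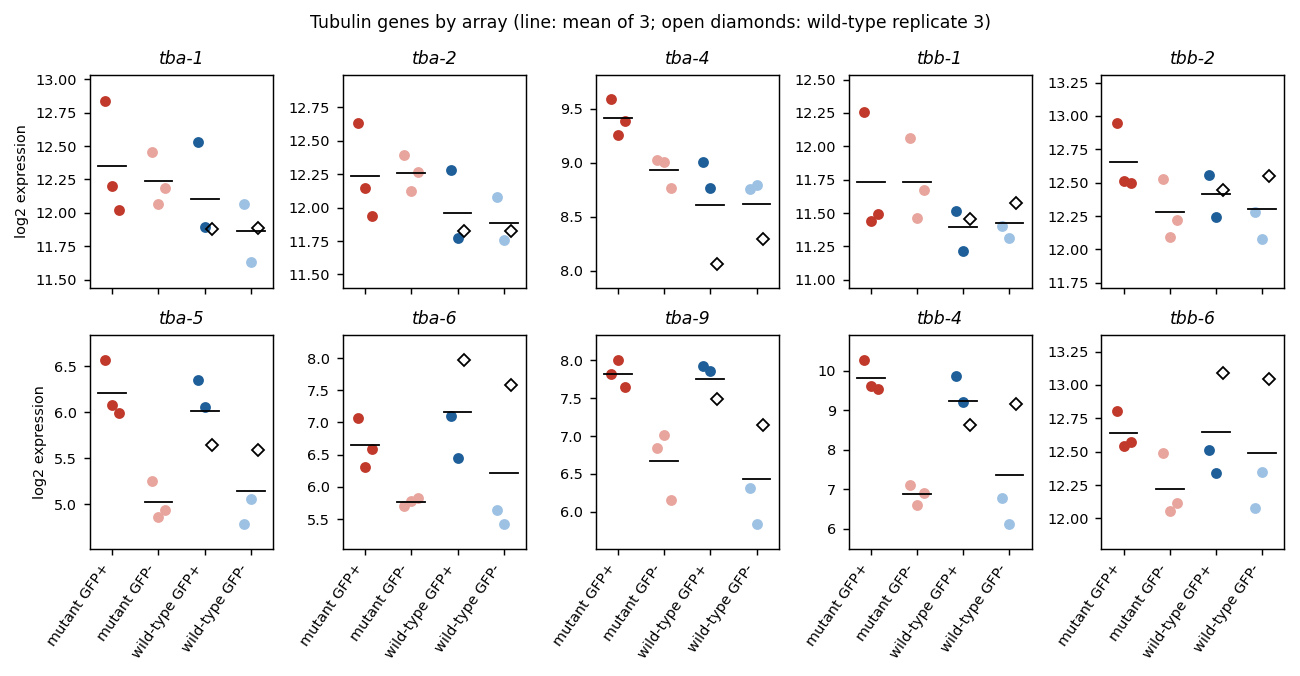
Log2 expression of the 10 tubulin genes (y axis) on each array by group (x axis), with a line at the mean of the 3 arrays; filled points are arrays, and open diamonds are the wild-type replicate 3 arrays. The mutant GFP+ arrays of tbb-4 lie between 9.53 and 10.28 and the mutant GFP- arrays between 6.61 and 7.11, while tba-1, tba-2 and tbb-1 overlap between the fractions.

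Among the general isotypes, tba-1 read 12.84, 12.20 and 12.02 in mutant GFP+ cells and 12.45, 12.07 and 12.19 in mutant GFP- cells. The groups overlapped, with a log2 difference of 0.12 ± 0.25 and a 95% interval of -0.43 to 0.67. tbb-1 read 12.26, 11.44 and 11.49 in mutant GFP+ and 12.06, 11.46 and 11.67 in mutant GFP- cells, and its interval ran from -0.51 to 0.51. These intervals leave room for changes of under 1 log2 unit in either direction and do not reach the difference of tbb-4.

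tba-2 overlapped between the fractions on all 3 of its probe sets. On the brightest it had 12.63, 12.14 and 11.94 in mutant GFP+ cells and 12.39, 12.13 and 12.27 in mutant GFP- cells, a difference of -0.02 ± 0.20. The other 2 gave -0.06 ± 0.28 and -0.17 ± 0.37. The limma adjusted p of these 3 probe sets was 0.84 to 0.965. The brightest one and one of the others end in _x_at, a suffix for probes that can also bind related transcripts. Across the members, 5 probe sets end in _s_at, whose probes can match several transcripts, 2 in _x_at and 5 in neither, the last being those of tba-4, tba-5, tba-6, tba-9 and tbb-6.

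tbb-2 and tba-4 leaned towards GFP+ cells. tbb-2 read 12.94, 12.52 and 12.50 in mutant GFP+ cells and 12.53, 12.10 and 12.22 in mutant GFP- cells, higher in GFP+ in 3 of 3 numbered pairs. The log2 difference of 0.37 did not pass with 12 or 10 arrays (SE 0.18 and 0.17, limma adjusted p = 0.231 and 0.153). It passed with 10 arrays and the replicate block (adjusted p = 0.029) and under quantile normalization (log2 difference 0.71, adjusted p = 0.031). tba-4 read 9.59, 9.26 and 9.39 in mutant GFP+ cells and 9.03, 9.01 and 8.77 in mutant GFP- cells, with no overlap. Its difference of 0.48, or 1.39-fold, did not pass with 12 arrays (SE 0.24, limma adjusted p = 0.228). It passed with 10 arrays (SE 0.13, adjusted p = 0.0245), with 10 arrays and the replicate block (adjusted p = 0.0216) and with array weights (adjusted p = 0.0327).

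tbb-6 had 12.80, 12.55 and 12.57 in mutant GFP+ cells, against 12.49, 12.06 and 12.11 in mutant GFP- cells. The ranges were narrowly apart, and the difference of 0.42 did not pass (SE 0.27 and 0.15 with 12 and 10 arrays, limma adjusted p = 0.363 and 0.0716), but did with 10 arrays and the replicate block (adjusted p = 0.0363) and under quantile normalization (log2 difference 0.75, adjusted p = 0.027). In all, 6 of the 10 genes had every mutant GFP+ array above every mutant GFP- array, where 21% of all genes did.

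In wild-type cells the same 4 isotypes of ciliated neurons were called once the replicate 3 pair was left out. tbb-4 read 9.87 and 9.21 in wild-type GFP+ replicates 1 and 2, against 6.79 and 6.12 in wild-type GFP- replicates 1 and 2. The third replicates read 8.62 in GFP+ and 9.16 in the library labelled GFP-, so that library alone makes the wild-type groups overlap. The log2 difference was 3.08 ± 0.33 without the pair (limma adjusted p = 0.0003), or 8.46-fold, and 1.87 ± 0.65 with it (adjusted p = 0.315).

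The alpha isotypes followed. tba-9 had 7.93 and 7.86 in wild-type GFP+ and 6.31 and 5.84 in wild-type GFP- replicates 1 and 2, and replicate 3 had 7.48 in GFP+ and 7.15 in the library labelled GFP-. The difference was 1.82 ± 0.28 without the pair (limma adjusted p = 0.0022). tba-5 had 6.35 and 6.06 in wild-type GFP+ and 4.78 and 5.06 in wild-type GFP- cells, with 5.65 and 5.60 in replicate 3 of the same groups, and a difference of 1.28 ± 0.23 without the pair (adjusted p = 0.00459). tba-6 had 7.09 and 6.44 in wild-type GFP+ and 5.64 and 5.42 in wild-type GFP- cells, and 7.97 and 7.58 in replicate 3, both above every other array for this gene. Without the pair its difference was 1.24 ± 0.27 (adjusted p = 0.013).

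These 4 of 10 genes stood against 8.78% of all genes that rose in wild-type GFP+ cells without the pair. With all 12 arrays, limma called 0 of 10, where 0% of all genes rose. An unadjusted p under 0.05 was found for 3 of 10 (tba-5, tba-9 and tbb-4), against 2183 of 17118 genes. tba-5 and tba-9 had every wild-type GFP+ array above every wild-type GFP- array even with the pair, 2 of 10 against 5.58% of all genes. Leaving out only the library labelled wild-type GFP- replicate 3 gave 4 calls, where 7.07% of all genes rose.

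The other 6 genes differed by -0.03 to 0.24 log2 units in wild-type with 12 arrays and by 0.01 to 0.36 without the pair, and none passed limma in either fit. For tba-4 the wild-type difference without the pair was 0.11 ± 0.16, where the mutant had 0.48. The test of the difference between the strains, the interaction, did not pass for this gene (0.37 ± 0.21, adjusted p = 1).

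**Figure D2:**
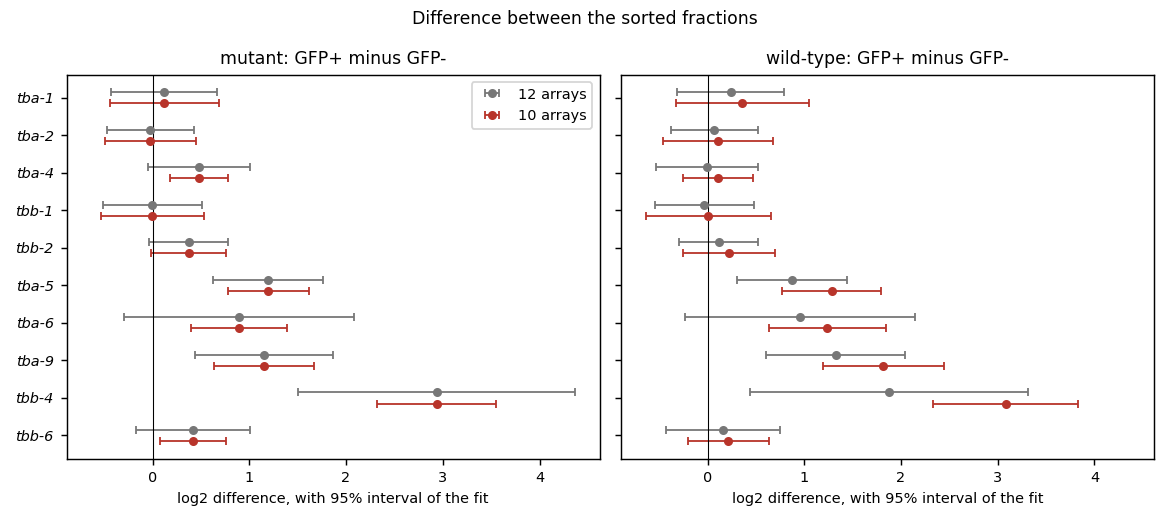
Log2 difference of GFP+ minus GFP- cells (x axis) for each tubulin gene (y axis), mutant on the left and wild-type on the right, with the 95% interval of the limma fit from 12 arrays (grey) and 10 arrays (red). The interval of tbb-4 without the replicate 3 pair runs from 2.32 to 3.55 in mutant and from 2.33 to 3.83 in wild-type, and the intervals of tba-1, tba-2 and tbb-1 cover 0 in each panel.

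Read within an array, tbb-4 moved against the general beta isotypes. The log2 ratio of tbb-4 to tbb-2 was -2.97 to -2.67 in mutant GFP+ cells, against -5.49 to -5.32 in mutant GFP- cells. It was -3.04 and -2.69 in wild-type GFP+ replicates 2 and 1, against -5.95 and -5.49 in wild-type GFP- replicates 2 and 1. The ratio depends on 2 probe sets, both ending in _s_at, whose probes can match several transcripts. Only the change of the ratio between groups can be read, 2.56 log2 units in mutant and 2.86 in wild-type without the pair. In the library labelled wild-type GFP- replicate 3 it was -3.39, and in wild-type GFP+ replicate 3 it was -3.82.

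Over the arrays, tbb-4 and the cilium genes, measured in the same sorted cells, fell into the same 2 sets. The 5 GFP- arrays outside the pair had a cilium mean of 5.402 to 5.72 and tbb-4 at 6.12 to 7.11, and the other 7 arrays had a cilium mean of at least 8.22 and tbb-4 at 8.62 to 10.28. Among those 7, the 2 highest cilium means (9.004 in wild-type GFP+ replicate 3 and 9.07 in the library labelled wild-type GFP- replicate 3) went with the 2 lowest values of tbb-4, 8.62 and 9.16. Among the 37 cilium genes, 24 had a larger GFP+ to GFP- difference than tbb-4 in mutant, and 33 had a larger one than tba-5. In the mutant 26 of the 37 cilium genes rose with 12 arrays and 36 with 10, where 6.36% and 14.3% of all genes did. The median log2 difference of the cilium genes was 3.23.

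**Figure D3:**
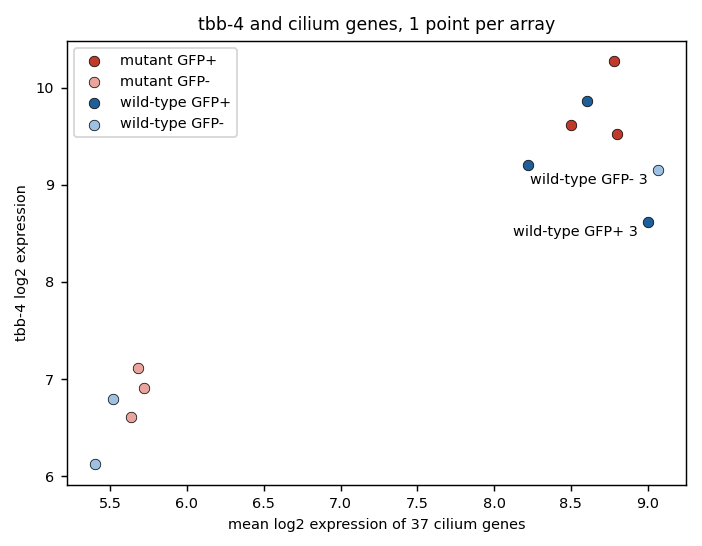
Log2 expression of tbb-4 (y axis) against the mean log2 expression of 37 cilium genes (x axis), 1 point per array, coloured by group. The library labelled wild-type GFP- replicate 3, at 9.16 and 9.07, lies with the GFP+ arrays, and the other 5 GFP- arrays lie at or below 7.11 for tbb-4.

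Several other lists of cell type markers moved with the fractions too. In mutant GFP+ cells 13 of 17 pan-neuronal genes rose, and 10 of 18 body wall muscle genes and 8 of 20 genes of dividing cells fell, with limma and 12 arrays, where 6.36% of all genes rose and 6.6% fell. In the same fit 6 of 14 hypodermis and 4 of 11 intestine genes fell, and 1 gene of each list rose. Of 8 glia genes 1 fell and 0 rose, and 0 of 7 pharynx genes passed. The mean of the dividing cell genes lay at 6.53 to 6.90 in the GFP+ arrays of the mutant, against 7.51 to 8.39 in its GFP- arrays. The muscle mean lay at 7.60 to 8.05 in its GFP+ arrays, against 9.71 to 10.42 in its GFP- arrays. The general tubulins, which dividing cells use for their spindles, were measured in this setting, and the part of these shifts in their values was not tested.

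By the root mean square difference of centred log2 values over the 12 arrays, the genes most like tbb-4 were npr-34 (0.32), prhg-1 (0.34), wdr-31 (0.35), odr-3 (0.35), a G protein alpha subunit of olfactory neurons, and F37A4.6 (0.38). Their GFP+ to GFP- differences in mutant were 2.89 to 3.40 log2 units. The genes most like tbb-2 were eat-6 (0.10), a sodium pump subunit, unc-108 (0.11), a Rab2 GTPase, cts-1 (0.12), a citrate synthase, spc-1 (0.12), an alpha spectrin, and ZK829.7 (0.12).

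The numbered arrays of a group also varied together across the tubulins. Replicate 1 was the highest of 3 arrays for 9 of the 10 genes in mutant GFP+ cells, 8 in mutant GFP- and 8 in wild-type GFP+ cells, and this held for all 5 general isotypes in these 3 groups. Over all genes, replicate 1 was the highest for 32.5%, 32.9% and 24.4% in the same groups. In wild-type GFP- cells it was the highest for 2 of 10, against 25.9% of all genes. Replicate 3, the library that went against its label, was the highest for 7. The share of all genes for replicate 3 was not computed, so this count is not read as particular to the tubulins.

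The strain comparisons asked whether tubulin levels differ when mir-124 is lost. The level of mir-124 itself was not analysed here, so the strain labels were not checked by it. In GFP+ cells limma called 0 of 10 with 12 arrays and with 10, where 0.0175% and 0.0234% of all genes were called in either direction. Only 1 of the 10, tba-4, had an unadjusted p under 0.05 in each fit, against 185 and 541 of 17118 genes. Its values were 9.59, 9.26 and 9.39 in mutant GFP+ cells, against 9.01, 8.76 and 8.07 in wild-type GFP+ cells. Every mutant array was above every wild-type array, and the lowest value was that of replicate 3. The log2 difference was 0.80 ± 0.24 with 12 arrays and 0.53 ± 0.15 with 10 (limma adjusted p = 1 in both).

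Same-numbered GFP+ arrays of the strains deviated together, and with the replicate number as a block limma also called 0 of 10 (adjusted p = 1 for each). Within the numbered pairs, 7 of the 10 genes were higher in mutant GFP+ cells in 3 of 3, the 5 general isotypes, tba-5 and tbb-4, where 10.3% of all genes were. For tba-2 this held on the brightest and the _s_at probe sets. Its other _x_at probe set was lower in mutant GFP+ replicate 3 than in wild-type GFP+ replicate 3 (9.74 against 10.45). The pair differences were 0.31, 0.31 and 0.14 for tba-1 and 0.41, 0.41 and 0.91 for tbb-4. tba-6 was lower in mutant in 3 of 3.

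Over all genes, 2.85% had every mutant GFP+ array above every wild-type GFP+ array, and tba-4 was 1 of 10 tubulins that did. For tbb-4 the difference was 0.58 ± 0.65 with 12 arrays and 0.27 ± 0.30 with 10, and the 10-array interval ran from -0.41 to 0.96. For tba-5, tba-6 and tba-9 it was 0.01, -0.11 and -0.07 with 10 arrays, with errors of 0.21 to 0.25.

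In GFP- cells limma also called 0 of 10 with 12 arrays and with 10, against 0.0234% and 0.0175% of all genes. With 12 arrays 0 had an unadjusted p under 0.05, and with 10 arrays tba-9 did (0.60 ± 0.25, limma adjusted p = 0.878). Of all 17118 genes, 866 and 944 did in these fits. With 12 arrays and the brightest probe sets, tba-2 was the gene whose mutant GFP- arrays (12.39, 12.13 and 12.27) all lay above the wild-type GFP- arrays (12.08, 11.76 and 11.82). Over all genes 4.03% did so, and the difference of tba-2 was 0.37 ± 0.20 (limma adjusted p = 0.822). On its other _x_at probe set the groups overlapped (9.86 to 10.39 against 9.66 to 10.12, difference 0.20 ± 0.28). On its _s_at probe set they were apart (11.09 to 11.53 against 9.95 to 11.07, difference 0.72 ± 0.37). Same-numbered GFP- arrays of the strains did not deviate together in replicates 2 and 3 (correlations -0.0696 and -0.0294, against 0.232 in replicate 1). The third pair also uses the wild-type library that went against its label. With these limits, 4 of 10 (tba-1, tba-2, tba-4 and tbb-1) were higher in mutant GFP- cells in 3 of 3 numbered pairs, where 12.9% of all genes were. For tba-2 this held on the brightest and the _s_at probe sets. Its other _x_at probe set was lower in mutant GFP- replicate 3 than in the library labelled wild-type GFP- replicate 3 (9.96 against 10.12). The 12-array difference of tbb-4 here, -0.48 ± 0.65, rested on the library labelled wild-type GFP- replicate 3 and was 0.42 ± 0.30 without the pair.

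**Figure D4:**
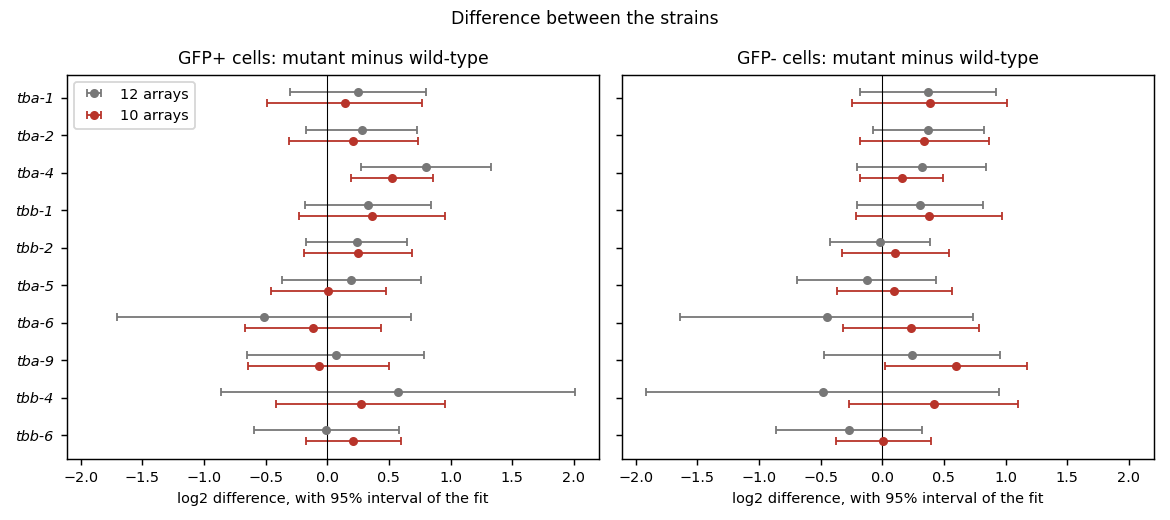
Log2 difference of mutant minus wild-type (x axis) for each tubulin gene (y axis) in GFP+ cells on the left and GFP- cells on the right, with the 95% interval of the limma fit from 12 arrays (grey) and 10 arrays (red). In GFP+ cells the intervals of tba-4 lie above 0 before adjustment, from 0.28 to 1.33 and from 0.19 to 0.86, and those of the other 9 genes cover 0.

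The GFP+ to GFP- difference itself was compared between the strains by the interaction term. Here limma called 0 of 10 in both fits, where 0% of all genes were called. An unadjusted p under 0.05 was found for 0 of 10, against 259 (12 arrays) and 212 (10 arrays) of 17118 genes. For tbb-4 the interaction was 1.06 ± 0.91 with 12 arrays and -0.15 ± 0.43 with 10, the sign changing with the replicate 3 pair. For tba-9 it was -0.17 ± 0.46 and -0.67 ± 0.36.

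Of the 5 other tubulins listed, 1 rose (mec-12), 1 fell (mec-7) and 3 did not pass in mutant with 12 arrays. Of all genes, 6.36% rose and 6.6% fell in that fit. mec-12, an alpha tubulin of touch receptor and other neurons that carries the acetylation site, read 9.71, 9.54 and 9.03 in mutant GFP+ cells, against 8.38, 8.37 and 8.17 in mutant GFP- cells. It rose by 1.12 ± 0.27 (limma adjusted p = 0.0282). mec-7, the beta tubulin of touch receptor neurons, read 8.50, 8.68 and 8.49 in mutant GFP+ cells, against 9.70, 9.55 and 9.51 in mutant GFP- cells, and fell by 1.03 (log2 difference -1.03 ± 0.20, adjusted p = 0.0157). Without the pair, the wild-type differences were 1.27 ± 0.22 for mec-12 and -0.62 ± 0.15 for mec-7 (adjusted p = 0.00398 and 0.0209). The mean of 12 touch receptor neuron genes was 6.99 to 7.16 in the mutant's GFP+ arrays, against 7.17 to 7.24 in its GFP- arrays. That list holds mec-7, mec-12 and mec-17. With 12 arrays 2 of its genes rose and 2 fell, where 6.36% and 6.6% of all genes did. The list's median log2 difference was 0.20, of the opposite sign to the change in the mean. The part of touch receptor neurons in these values was not tested.

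tba-7, tba-8 and the gamma tubulin tbg-1 did not pass in mutant with 12 or 10 arrays (12-array differences 0.47 ± 0.28, -0.12 ± 0.16 and -0.24 ± 0.21, limma adjusted p = 0.331, 0.721 and 0.529). tba-8 is a neighbour of tbb-4, with 5 protein-coding genes between them in the RefSeq annotation of WBcel235, and it read 4.42 to 4.92 over the 12 arrays.

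Enzymes that modify tubulin were measured for 10 of 11 listed genes, and 3 rose and 0 fell in mutant GFP+ cells with 12 arrays (4 and 1 with 10), where 6.36% and 6.6% of all genes did (14.3% and 14.6% with 10). ttll-11, a tubulin polyglutamylase, read 7.35, 7.17 and 7.67 in mutant GFP+ cells and 4.55, 5.69 and 4.07 in mutant GFP- cells, a rise of 2.63 ± 0.49 (limma adjusted p = 0.0156). The tubulin deglutamylases ccpp-6 and ccpp-1 rose by 2.11 ± 0.56 and 1.48 ± 0.42 (adjusted p = 0.0377 and 0.0462). The acetyltransferase mec-17 was the gene that fell with 10 arrays (-0.92 ± 0.14, adjusted p = 0.00124). The other acetyltransferase listed, atat-2, went the other way, higher in GFP+ in 3 of 3 mutant pairs. With 12 arrays neither passed (atat-2 0.74 ± 0.25 and mec-17 -0.92 ± 0.32, limma adjusted p = 0.0848 and 0.0895). The list median was 0.09 against 0.01 over all genes.

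Of 20 tubulin folding genes, the chaperonin, prefoldin and cofactor subunits, limma called 0 with 12 arrays, where 6.36% of all genes rose and 6.6% fell. In that fit 3 had an unadjusted p under 0.05, against 4957 of 17118 genes. With 10 arrays 1 rose and 3 fell. Where 14.3% and 14.6% of all genes did so, these 10-array counts are below or near the background, and the genes are named for their values. The cofactor tbce-1 rose (0.38 ± 0.12, adjusted p = 0.0475), and the chaperonin subunit cct-3 (-0.70 ± 0.19), the cofactor tbca-1 (-0.60 ± 0.16) and the prefoldin pfd-2 (-0.47 ± 0.16) fell (adjusted p = 0.0229, 0.0248 and 0.0493). Of 22 measured genes for microtubule binding, severing and nucleation, 2 rose with 12 arrays, near the 6.36% of all genes that did, and 0 fell, where 6.6% did. With 10 arrays 5 rose and 1 fell, where 14.3% and 14.6% of all genes did. Those that rose with 12 arrays were unc-119 (1.53 ± 0.39), a chaperone of lipid-modified ciliary proteins, and the neuronal ankyrin unc-44 (0.90 ± 0.26), with limma adjusted p = 0.034 and 0.0497. With 10 arrays noca-1, an organizer of microtubules away from centrosomes, fell (-1.35 ± 0.23, adjusted p = 0.0023). The list medians were 0.04 and 0.16.

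The probe sets of tba-2 disagreed on the wild-type replicate 3 arrays. One _x_at probe set read 10.45 in GFP+ and 10.12 in the library labelled GFP-, above the 9.36 to 9.94 of the other 4 wild-type arrays. The _s_at probe set read 9.82 and 9.95 on the same arrays, below the 10.62 to 11.10 of the others. The brightest read 11.82 on both. The wide 3' gap of this pair was given above, and its part in these values was not tested.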

How the data were processed

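The deposited table held log2 expression values for 22625 probe sets on 12 arrays. Per the submitters' processing notes, RMA, MAS5, affy and limma were used, with no role or version stated, and which summary the table holds is not settled here. Array medians were 5.39 to 5.51, and no further scaling was applied. After 77 controls were left out, 22548 probe sets were tested. Single-gene probe sets stood for 17118 genes, each by its brightest. Symbols of all 12 member probe sets matched RefSeq (WBcel235) by gene ID.

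Tests used limma 3.58.1 in R 4.3.3 with a mean per group over 12 arrays, 2-sided, with Benjamini-Hochberg adjustment over 22548 probe sets and a threshold of 0.05. The 12-array fit was checked on simulated data with the spread of the 10 arrays outside the wild-type replicate 3 pair. No library that goes against its label was simulated, so the check does not cover that case. Scanner files were not used here, and the number of arrays limits the precision. Figures used matplotlib 3.10.9. All 10 genes were named whatever their p. List members were named for the up to 3 largest rises and falls that passed. The members and lists were chosen with earlier results of these data known.

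Same-numbered GFP+ and GFP- arrays deviated together (correlations across probe sets of 0.359 to 0.435 in mutant and 0.41 to 0.485 in wild-type), as did mutant and wild-type GFP+ arrays (0.185 to 0.278). Between GFP- arrays of the 2 strains the correlation was 0.232 for replicate 1, and -0.0696 and -0.0294 for replicates 2 and 3. A replicate block, other normalizations, array weights, filters, prior settings and left-out arrays were alternatives.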

Additional observations from a re-analysis of the deposited data

How the results depend on the processing

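The count of tubulins that rose in mutant GFP+ cells (3 of 10) became 5 without the wild-type replicate 3 pair, 5 with array weights and 7 without the pair and with a replicate block within strain, an alternative chosen after seeing the data. The shares of all genes that rose in these fits were 14.3%, 15.7% and 17.6%. Otherwise the count was 4 with the block within strain, 4 under quantile normalization (tba-5, tbb-2, tbb-4 and tbb-6), 4 with the 6 mutant arrays alone, 2 with the block across strains and 2 with a trended and robust prior (tba-5 and tbb-4 in both). The shares of all genes that rose were, in the same order, 11.2%, 6.65%, 12.2%, 7.68% and 6.25%. Leaving out single arrays gave 0 to 3. The count was 0 without mutant GFP+ replicate 1, 2 or 3 or mutant GFP- replicate 1 or 3, where 0% to 1% of all genes rose. With the pair left out first, leaving out 1 more mutant array gave 4 to 6, where 11.1% to 14% of all genes rose. In wild-type the count of 0 became 4 without the pair, 4 with array weights and 4 without the pair and with the block, where 8.78%, 11.4% and 12% of all genes rose, and leaving out single arrays gave 0 to 4. The block within strain added tba-6 with 12 arrays, and tbb-2 (limma adjusted p = 0.029) and tbb-6 (adjusted p = 0.0363) without the pair. The strain and interaction counts stayed at 0 of 10 in the alternatives run.

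In the alternatives run, the differences that changed sign were ones that had not passed the test. In mutant, GFP+ minus GFP- turned to 0.24 for tba-2 and 0.081 for tbb-1 under quantile normalization and to 0.038 and 0.058 after an array-median shift. In wild-type, tba-4 turned to 0.11 without the pair (with or without the block), 0.014 under quantile normalization, 0.026 after the shift and 0.034 with array weights, and tbb-1 to 0.0097 without the pair (with or without the block) and 0.054 under quantile normalization. For mutant minus wild-type in GFP+ cells, tba-9 turned to -0.069 without the pair, -0.010 under quantile normalization and -0.016 with array weights, tbb-6 to 0.21 without the pair, 0.016 (shift) and 0.25 (weights), and tba-6 to 0.026 with weights. In GFP- cells the values without the pair and with weights were 0.11 and 0.21 for tbb-2, 0.098 and 0.12 for tba-5, 0.23 and 0.13 for tba-6, 0.42 and 0.46 for tbb-4, and 0.0095 and 0.045 for tbb-6. The interaction without the pair, with or without the block, was -0.012 for tbb-1, -0.090 for tba-5 and -0.15 for tbb-4, and -0.0040 for tbb-1 with weights. The cause of these changes was not tested.

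Leaving out 1 array at a time turned the sign of further values. For GFP+ minus GFP- in mutant, the range was -0.12 to 0.28 for tba-1, -0.22 to 0.13 for tba-2, -0.27 to 0.16 for tbb-1. For the same difference in wild-type, the range was -0.15 to 0.36 for tba-2, -0.20 to 0.27 for tba-4, -0.14 to 0.16 for tbb-1, -0.063 to 0.44 for tbb-6. For mutant minus wild-type in GFP+ cells, the range was -0.18 to 0.47 for tba-1, -0.045 to 0.47 for tba-2, -0.17 to 0.36 for tba-5, -0.88 to 0.21 for tba-6, -0.16 to 0.16 for tba-9, -0.058 to 0.89 for tbb-4, -0.16 to 0.30 for tbb-6. For mutant minus wild-type in GFP- cells, the range was -0.14 to 0.21 for tbb-2, -0.31 to 0.24 for tba-5, -0.85 to 0.34 for tba-6, -0.056 to 0.86 for tba-9, -1.102 to 0.75 for tbb-4, -0.47 to 0.14 for tbb-6. For the interaction, the range was -0.56 to 0.095 for tba-1, -0.39 to 0.13 for tba-2, -0.28 to 0.19 for tbb-1, -0.0099 to 0.38 for tbb-2, -0.27 to 0.50 for tba-5, -0.75 to 0.34 for tba-6, -0.93 to 0.12 for tba-9, -0.48 to 1.68 for tbb-4, -0.017 to 0.48 for tbb-6.

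Precision is set by how few arrays there are.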
